A study of Drosophila melanogaster with 8 samples.

Results

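The glial marker set holds 8 genes, repo, loco, Gat, Eaat1, Gs2, nrv2, moody and wrapper, and its probe sets were taken from the array by the gene symbol of the platform annotation. No probe set carried the symbol Eaat1 in that annotation, so Eaat1, a glutamate transporter, was not analysed here. Each of the other 7 genes had 1 probe set, which makes 7 of 18952 probe sets on the array, and all 7 passed a filter on low values that kept 8300 probe sets. By a RefSeq gene table, repo and loco lie on chromosome arm 3R, Gs2 and moody on X, nrv2 on 2L, wrapper on 2R and Gat on chromosome 4.

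RNA from fly heads was measured on Affymetrix Drosophila Genome 2.0 arrays, and the values are log2 intensities, so that a difference of 1 is a 2-fold change. The w1118 control (genotype w1118) is the control of a strain that carries a deletion named mir959-962-KO on the w1118 background, called the knockout here. The tim-gal4 control (genotype yw; tim-gal4/CyO) is the control of a strain with tim-gal4 and the transgene UAS-mir-cluster over CyO, also in a yw background, called overexpression here. In both of these strains Gal4 is made under the tim promoter, so a transgene is driven in cells that use that promoter and not in all cells of the head. Flies were kept for 3 days in 12 h of light and 12 h of dark and collected 4 h (ZT4) or 16 h (ZT16) after lights on. Each of the 4 strains has 1 array at each time, 8 arrays in all with no replicates, and neither age, sex nor the number of flies is given in the labels.

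Glia insulate neurons, clear and recycle transmitters, supply metabolites and form the barrier between brain and blood in the fly. The gene repo encodes a homeodomain transcription factor of nearly all lateral glia, where it maintains the glial state. The gene loco encodes a regulator of G-protein signalling, and moody encodes a G-protein-coupled receptor of the surface glia that form the barrier. The genes Gat and Gs2 encode a GABA transporter and glutamine synthetase, which take up and recycle transmitter. The gene nrv2 encodes a beta subunit of the sodium-potassium pump, found in glia and at septate junctions, and wrapper encodes an immunoglobulin-domain protein of glia that wrap axons and cell bodies.

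All 7 genes were well above the lowest value on the array, 2.32, on each of the 8 arrays. Their lowest single value was 5.51. Probes of different genes bind with different strength, so levels are compared here only within a gene. The RNA comes from whole heads, where fewer glial cells and less RNA per glial cell cannot be told apart. The share of non-control probe sets that reached 4 on the log2 scale was 39.8% to 40.8%. The median over all probe sets was 2.54 to 2.59 on 6 arrays, 2.91 on knockout ZT16 and 2.88 on tim-gal4 control ZT16. On these 2 arrays, markers of tissue outside the head were high. The log2 of the summed level of 11 accessory gland genes (of 11 listed) was 13.3 and 12.8 there against 5.88 to 6.23 on the other 6 arrays, that of 7 gut enzymes (of 12 listed) 11.7 and 12.5 against 5.14 to 5.54, and that of 11 testis genes (of 12 listed) 9.80 and 9.93 against 5.85 to 5.87. None of the 7 glial genes was among the 372 probe sets at least 2-fold higher on both of these arrays than on each of the other 6.

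Differences were tested in a fit with strain and time of collection over the 8 arrays in limma. It has 3 residual degrees of freedom, and its error comes from how far the strains differ in their time change, because no strain and time was measured more than once. A probe set is called higher, lower, risen or fallen when its two-sided p, adjusted by Benjamini-Hochberg over the 8300 probe sets, is under 0.05. Errors given with differences are standard errors (SE) of this fit. Without separate cultures behind the arrays, the p-values speak for these arrays alone.

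The gene repo was the member that varied most. The w1118 control arrays gave log2 intensities of 8.75 (ZT4) and 8.55 (ZT16) for repo, and the knockout arrays 6.70 and 5.51. The tim-gal4 control arrays gave 8.14 and 7.79, the overexpression arrays 7.73 and 7.75. The 2 knockout arrays were the lowest of the 8, and they did not overlap with those of any other strain. The span from the lowest to the highest array was 3.24 on the log2 scale, a 9.45-fold range, and 94.9% of the kept probe sets had a smaller span. By strain mean the order was w1118 control (8.65), tim-gal4 control (7.97), overexpression (7.74) and knockout (6.11).

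Against the w1118 control, repo was lower in the knockout by 5.82-fold (log2 difference -2.54, SE 0.30, adjusted p = 0.0272 in limma). The study's design sets these strains against each other to ask what changes when the miRNA cluster is deleted. The difference between the single arrays was -2.05 at ZT4 and -3.03 at ZT16. With the tim-gal4 control as the reference, repo in the knockout was also called lower, by 3.62-fold (log2 difference -1.86, SE 0.30, adjusted p = 0.0141 in limma). Set against overexpression, the log2 difference was -1.63 (SE 0.30, adjusted p = 0.0128 in limma). Thus the knockout differed from each of the other 3 strains past the threshold, while the neighbours in the order above it did not. The controls differed by 0.68 (adjusted p = 0.140 in limma, SE 0.30), and overexpression and the tim-gal4 control by -0.23 (SE 0.30, adjusted p = 0.610 in limma). The difference between the controls passed the threshold without knockout ZT4 (adjusted p = 0.0416 in limma) or knockout ZT16 (0.0140), at the same size. The w1118 control exceeded overexpression by 0.91 (SE 0.30, adjusted p = 0.0628 in limma), and this was called in 8 of 18 alternatives, among them those without knockout ZT4 (0.0172), knockout ZT16 (0.0033) or tim-gal4 control ZT16 (0.0268).

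The knockout ZT16 array, which has the lowest repo value, is also one of the 2 arrays with markers of body tissue. Without both of these arrays, repo was lower in the knockout by 1.99 on the log2 scale (log2 difference -1.99, SE 0.18, adjusted p = 0.0011 in limma). The knockout and the tim-gal4 control then have 1 array each, so this SE and p come from the spread of the other strains, w1118 control and overexpression, and the lone arrays are assumed to vary alike. The value rests on the knockout ZT4 array, where the same markers are low and which differed from its w1118 control by -2.05 as given above. Among the 6 arrays outside these 2, knockout ZT4 had the highest summed level of gut enzymes (5.54) and of accessory gland genes (6.23). On the tim-gal4 control ZT16 array, with levels of these markers like those on knockout ZT16, repo read 7.79. The change of repo from ZT4 to ZT16 was -0.35 for that strain, and -1.19 for the knockout. Where neither array had high body-tissue markers, it was -0.21 (w1118 control) and 0.019 (overexpression). Whether body tissue had a part in the low repo values was not tested. The call did not hold in every fit. The adjusted p in limma was 0.229 with no filter, 0.274 with the 4 arrays of the 2 strains alone, 0.179 without the w1118 control ZT4 array, 0.277 without the w1118 control ZT16 array, 0.0880 without the tim-gal4 control ZT4 array and 0.0628 without either overexpression array, and the log2 difference stayed between -3.05 and -1.99 in the 18 alternatives run. Against the tim-gal4 control the call was lost with no filter (adjusted p = 0.108 in limma) and without tim-gal4 control ZT4 (0.0740), and against overexpression with no filter (0.0961), with the 4 arrays alone (0.0873) and without overexpression ZT16 (0.0832).

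**Figure D1:**
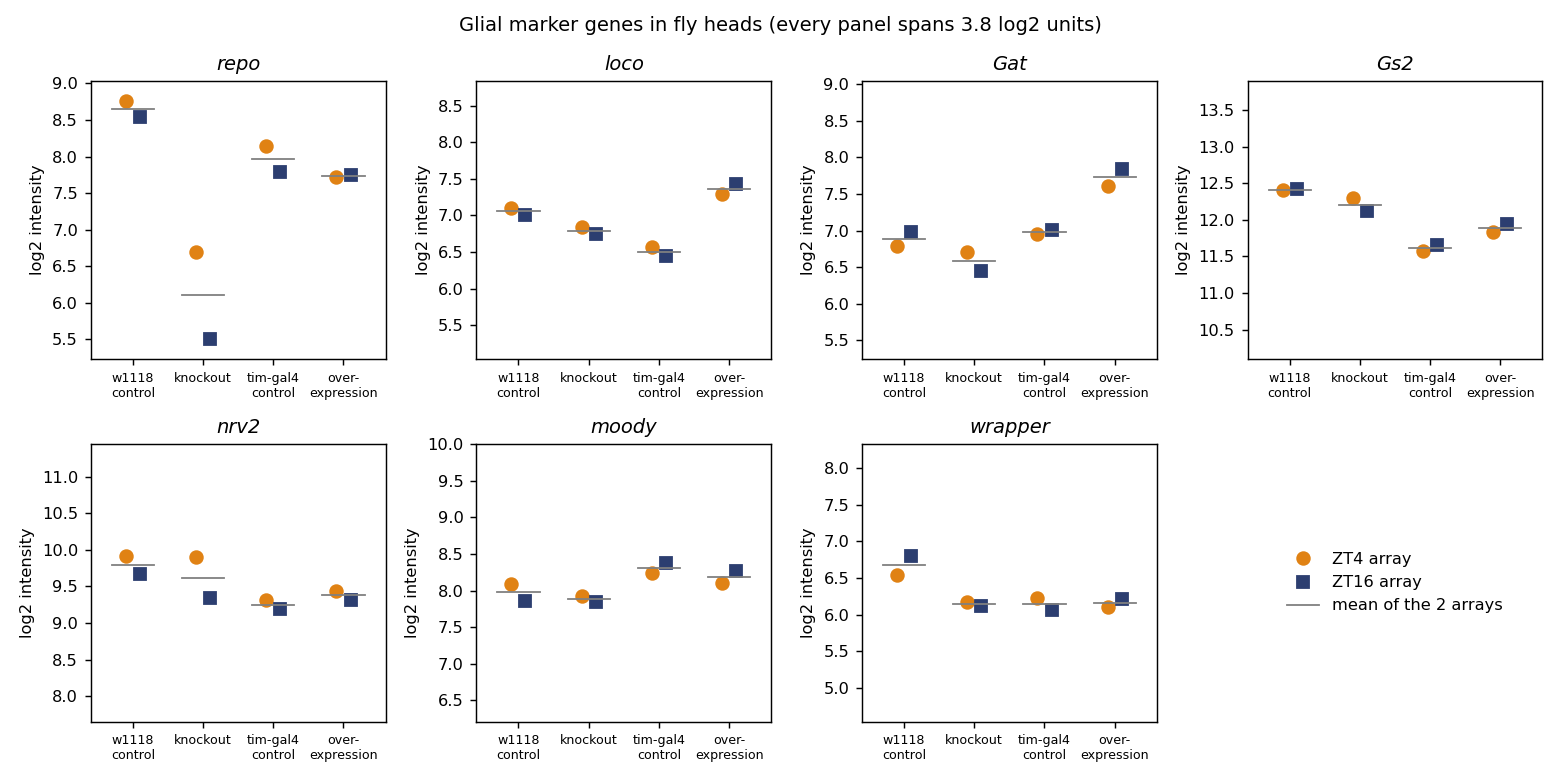
Log2 intensity of each of the 7 glial genes (vertical axis, each panel spanning the same number of log2 units) on the 8 arrays by strain (horizontal axis). Circles are ZT4 arrays, squares are ZT16 arrays, and lines are the means of the 2 arrays of a strain. The repo values of the knockout, 6.70 and 5.51, lie below all others of that gene, while the spans of the other 6 genes are between 0.54 and 1.39.

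The differences of the other 6 glial genes in the knockout were smaller than that of repo. Their log2 differences from the w1118 control were -0.53 (SE 0.14) for wrapper, -0.31 (SE 0.15) for Gat, -0.26 (SE 0.12) for loco, -0.21 (SE 0.12) for Gs2, -0.17 (SE 0.14) for nrv2 and -0.093 (SE 0.14) for moody. All 6 were negative, and none passed the threshold in limma, with adjusted p-values from 0.203 for wrapper to 0.757 for moody. In all, 1 of 7 glial genes was called in this comparison, where 1.58% of the 8300 probe sets were called (0.819% lower). An unadjusted p under 0.05 was found for 2 of the 7, repo and wrapper, and for 14.1% of all probe sets. The median difference of the 7 was -0.26 beside -0.095 over all probe sets, of which 67.1% were below 0. Of the 12 neuronal genes measured, 10 were below 0 in the same comparison, with a median of -0.34 and no call. All 5 photoreceptor genes were below 0 (median -0.26, no call). Of 8 hemocyte genes 7 were above 0 (median 0.28), with 1 called higher. The 6 fat body genes and the 6 muscle genes were each split, 3 below and 3 above 0, with no call. The part of these cell types in the glial values was not tested.

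**Figure D2:**
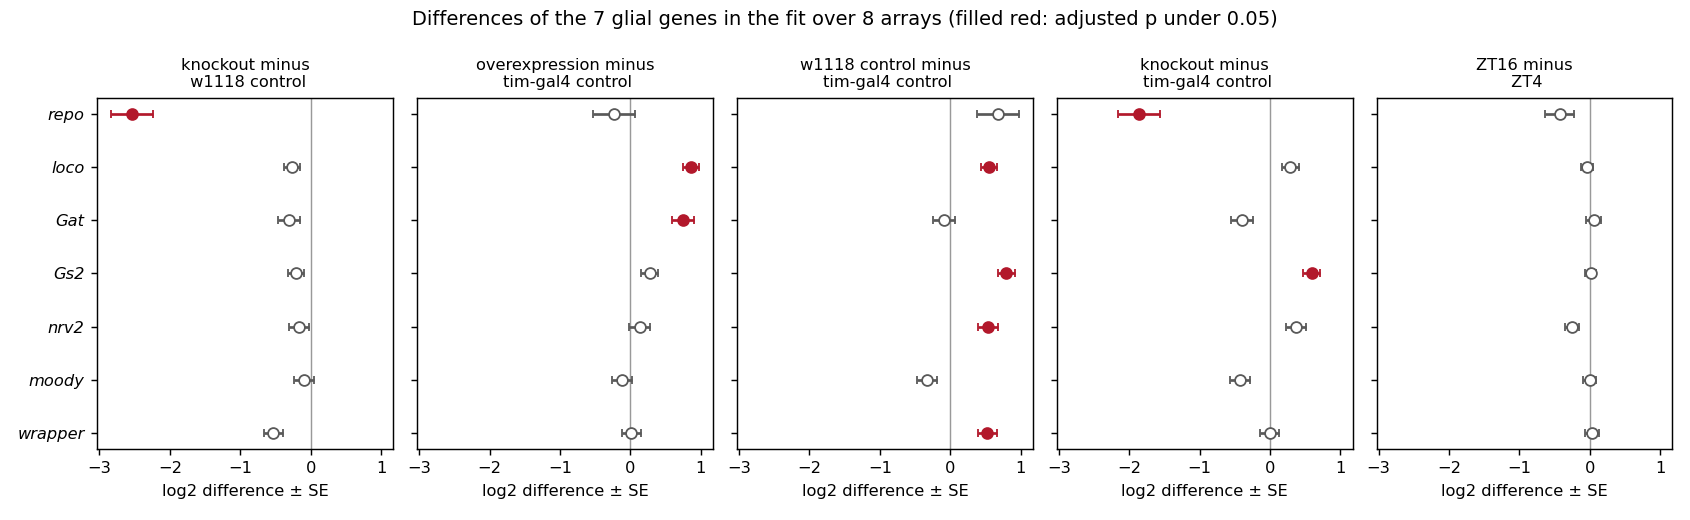
Log2 differences with SE (horizontal axis) of the 7 glial genes (rows) in the 4 strain comparisons and in the comparison of times. Filled red points have an adjusted p under 0.05 in limma: repo in both comparisons of the knockout, loco and Gat under overexpression, Gs2, loco, nrv2 and wrapper between the controls, and Gs2 between the knockout and the tim-gal4 control.

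No difference of this size was read in the genes next to repo on the chromosome, but most of them had low levels. Of the 12 protein-coding genes nearest to it in order, 6 on each side, 8 had a kept probe set of their own. Their log2 differences between the knockout and the w1118 control lay between -0.43 (CG18598) and 0.13 (Non3), with adjusted p-values of at least 0.448 in limma. The nearest measured gene on one side, CG7156, differed by -0.26 (SE 0.14), and 14-3-3epsilon, which follows it and encodes a phosphoprotein-binding adaptor, by -0.017 (SE 0.11). In the w1118 control, CG7988, CG7156, CG7183, CG7168, Non3 and mTerf5 had means of only 3.96 to 5.37. The lowest value on the array is 2.32, so a fall like that of repo could not be read reliably there. Only CG18598 (8.38) and 14-3-3epsilon (11.67) were well above it.

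**Figure D3:**
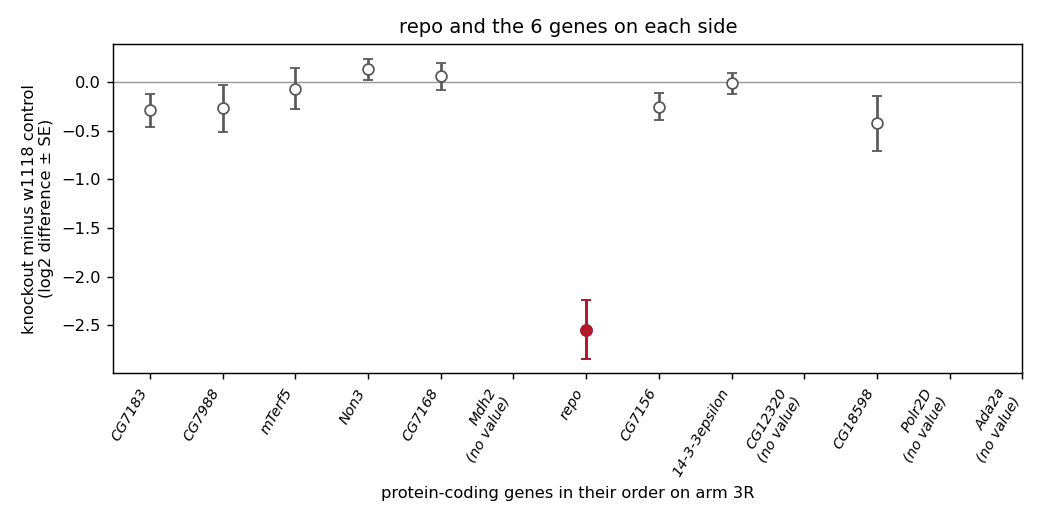
Log2 difference with SE between the knockout and the w1118 control (vertical axis) for repo and 6 protein-coding genes on each side, in their order on chromosome arm 3R (horizontal axis, not to scale). The 8 neighbours with a value lie between -0.43 and 0.13, and repo, in red, lies at -2.54. A gene marked as having no value has no kept probe set with its symbol alone.

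The transcripts with the pattern most like that of repo were looked for among 7346 kept probe sets with 1 symbol, by Pearson correlation over the 8 arrays. The arrays share strain and time, so the correlations describe these arrays and were not tested. The 5 highest were CG12560 (0.971), htt, the fly huntingtin gene (0.969), CG13248 (0.956), sima, the hypoxia-inducible factor alpha subunit gene (0.954), and Ctr9, a subunit gene of the Paf1 elongation complex (0.952). All 5 had both knockout arrays below the other 6. That follows largely from the choice by correlation with repo, whose knockout arrays were the lowest, and is no separate result. For sima the w1118 control arrays gave log2 intensities of 6.68 (ZT4) and 6.58 (ZT16), the knockout arrays 5.16 and 4.91, the tim-gal4 control arrays 6.11 and 5.92, and the overexpression arrays 6.29 and 6.22. No glial gene was among them. The correlation with repo was 0.604 for wrapper, which ranks 490 of 7346, 0.421 for moody, 0.389 for Gat, 0.224 for loco, 0.192 for nrv2 and 0.0089 for Gs2.

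The RGS gene loco was highest under overexpression. This gene, which was low in the tim-gal4 control, had log2 intensities of 7.10 (ZT4) and 7.01 (ZT16) on the w1118 control arrays and 6.84 and 6.75 on the knockout arrays. The tim-gal4 control arrays gave 6.57 and 6.44 and the overexpression arrays 7.29 and 7.43, and the pairs of arrays of the 4 strains did not overlap. Under overexpression, loco was 1.81-fold higher than in the tim-gal4 control (log2 difference 0.86, SE 0.12, adjusted p = 0.0112 in limma), with single-array differences of 0.72 at ZT4 and 0.996 at ZT16. This call was lost with the 4 arrays of the 2 strains alone (adjusted p = 0.103 in limma) and without tim-gal4 control ZT4 (0.0561), overexpression ZT4 (0.0535) or overexpression ZT16 (0.0865). In the w1118 control, loco was higher than in the tim-gal4 control too, by 0.55 (SE 0.12, adjusted p = 0.0228 in limma), a call lost in 8 of 18 alternatives, 5 of which left out 1 array (w1118 control ZT4 or ZT16, tim-gal4 control ZT4 or ZT16, or knockout ZT4, adjusted p from 0.0548 to 0.0967 in limma). The w1118 control and overexpression differed by less (difference -0.31, SE 0.12, adjusted p = 0.0921 in limma). The order by strain mean was overexpression (7.36), w1118 control (7.06), knockout (6.79) and tim-gal4 control (6.50), and the differences between the knockout and the strains next to it were not called, with 0.29 (SE 0.12, adjusted p = 0.134 in limma) against the tim-gal4 control.

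The receptor gene moody varied least of the 7, over a span of 0.54. Its log2 intensities at ZT4 and ZT16 were 8.09 and 7.86 (w1118 control), 7.92 and 7.84 (knockout), 8.24 and 8.38 (tim-gal4 control) and 8.11 and 8.27 (overexpression). Only 16.5% of the kept probe sets had a smaller span. No strain comparison of moody was called in limma, and the nearest to the threshold was the knockout against the tim-gal4 control (log2 difference -0.43, SE 0.14, adjusted p = 0.0841). That difference was called with trended and robust moderation (adjusted p = 0.0398) and with a filter of at least 5 on at least 4 arrays (adjusted p = 0.0451).

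The transporter gene Gat was high under overexpression. The overexpression arrays gave log2 intensities of 7.61 (ZT4) and 7.84 (ZT16), the tim-gal4 control arrays 6.95 and 7.01, the w1118 control arrays 6.79 and 6.98, and the knockout arrays 6.71 and 6.45. The 2 overexpression arrays were the highest of the 8, and those of the other strains lay between 6.45 and 7.01. Against the tim-gal4 control, Gat was 1.68-fold higher (log2 difference 0.75, SE 0.15, adjusted p = 0.0287 in limma), by 0.66 at ZT4 and 0.83 at ZT16. It was also higher under overexpression than in the knockout (log2 difference of the knockout -1.15, SE 0.15, adjusted p = 0.0053 in limma) and than in the w1118 control (log2 difference of the w1118 control -0.84, SE 0.15, adjusted p = 0.0116 in limma). Between both controls the difference was -0.092 (adjusted p = 0.665 in limma, SE 0.15), and both knockout arrays lay below the other 6. The knockout differed from the tim-gal4 control by -0.40 (SE 0.15, adjusted p = 0.121 in limma), which was not called. The call against the tim-gal4 control was lost in 8 of 18 alternatives, with no filter (adjusted p = 0.122 in limma), with the 4 arrays alone (0.106) and without any single array other than those of the knockout (0.0520 to 0.178). That against the w1118 control was lost in 4 of 18, with no filter (0.0629) and without w1118 control ZT4 (0.0674), w1118 control ZT16 (0.0501) or overexpression ZT16 (0.0778), and that against the knockout with the 4 arrays alone (0.0571).

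The glutamine synthetase gene Gs2 was higher in the w1118 control than in both yw strains. The w1118 control arrays gave log2 intensities of 12.40 (ZT4) and 12.42 (ZT16) and the knockout arrays 12.30 and 12.12, whereas the tim-gal4 control arrays gave 11.57 and 11.66 and the overexpression arrays 11.83 and 11.94. All 4 arrays on the w1118 background were above all 4 on the yw background. Between the controls Gs2 was 1.74-fold higher in w1118 (log2 difference 0.80, SE 0.12, adjusted p = 0.0095 in limma), and the knockout was higher than the tim-gal4 control (0.59, SE 0.12, adjusted p = 0.0242 in limma). The w1118 control was higher than overexpression by 0.53 (SE 0.12, adjusted p = 0.0210 in limma), a call lost with no filter (0.0555) and without any single array of these strains (0.0753 to 0.128). The knockout and overexpression differed by 0.32 (SE 0.12, adjusted p = 0.0895 in limma), which was not called. Neither manipulated strain differed past the threshold from its own control, with -0.21 (SE 0.12, adjusted p = 0.466 in limma) in the knockout and 0.27 (SE 0.12, adjusted p = 0.168 in limma) under overexpression. The call between the controls was lost with their 4 arrays alone (adjusted p = 0.0991 in limma), without w1118 control ZT16 (0.0624) and without tim-gal4 control ZT4 (0.0532), and that of the knockout against the tim-gal4 control without tim-gal4 control ZT4 (0.113), knockout ZT4 (0.157) or either overexpression array (0.0509) and with no filter (0.0738).

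The pump subunit gene nrv2 had log2 intensities at ZT4 and ZT16 of 9.91 and 9.66 (w1118 control), 9.89 and 9.35 (knockout), 9.31 and 9.19 (tim-gal4 control) and 9.44 and 9.32 (overexpression). The w1118 arrays were both above the yw arrays, and the knockout ZT16 array lay among the yw arrays. Between the controls the log2 difference was 0.54 (SE 0.14, adjusted p = 0.0424 in limma). Its neighbour on arm 2L, the related subunit gene nrv1, differed in the same direction by 0.57 (SE 0.15, adjusted p = 0.0390 in limma). The gene nrv1 is named for its place, outside the rule for list genes, and its call was not followed through the alternatives. The nrv2 call was lost in 9 of 18 alternatives, 6 of which left out 1 array of either control or of overexpression (adjusted p from 0.0520 to 0.174 in limma).

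The adhesion protein gene wrapper had log2 intensities at ZT4 and ZT16 of 6.55 and 6.80 (w1118 control), 6.18 and 6.11 (knockout), 6.23 and 6.07 (tim-gal4 control) and 6.11 and 6.22 (overexpression). The w1118 control was above the other 6 arrays, which lay within 6.07 to 6.23. It was called higher in the w1118 control than in the tim-gal4 control (log2 difference 0.52, SE 0.14, adjusted p = 0.0405 in limma) and than under overexpression (0.51, SE 0.14, adjusted p = 0.0364 in limma). The difference of like size from the knockout was not called (knockout minus w1118 control -0.53, SE 0.14, adjusted p = 0.203 in limma). The call between the controls was lost in 11 of 18 alternatives, with an adjusted p of 0.0652 in limma after quantile normalization and of 0.0605 to 0.195 without any single array other than knockout ZT16. That against overexpression was lost in 6 of 18, with no filter (0.111) and without either w1118 control array, either overexpression array or knockout ZT4 (0.0501 to 0.177).

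The shares of all probe sets called put these counts in scale. Under overexpression 2 of 7 glial genes rose (loco and Gat) and none fell, where 20.5% of all probe sets were called and 14.3% were higher. Between the w1118 control and the tim-gal4 control 4 of 7 were higher in w1118 (Gs2, loco, nrv2 and wrapper), where 30.9% were called and 19.9% were higher. The knockout differed from the tim-gal4 control in 2 of 7, with repo lower and Gs2 higher, where 22.8% were called, 11.7% higher and 11.2% lower. It differed from overexpression in 3 of 7 (repo, loco and Gat, all lower in the knockout), where 35.5% were called and 21.8% were lower. For loco this difference was -0.57 (SE 0.12, adjusted p = 0.0172 in limma), and the call was lost with the 4 arrays alone (0.0881), without both arrays high in body-tissue genes (0.0564) or without knockout ZT4 (0.0892), knockout ZT16 (0.0781) or overexpression ZT16 (0.106). The w1118 control differed from overexpression in 3 of 7 (Gs2 and wrapper higher, Gat lower), where 38.5% were called.

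Lists of other cell types were mixed between the control strains. Of 12 neuronal genes measured, 6 were higher and 2 lower in the w1118 control than in the tim-gal4 control. Of all probe sets 19.9% were higher and 11% lower. The lower neuronal genes include VGlut, with means of 2.68 and 3.69, too near the lowest value of the array for a size. It passed the filter only through the 2 overexpression arrays. The median log2 difference of the neuronal genes was 0.54, equal to the median of the 7 glial genes (0.54), beside 0.11 over all probe sets. None of 5 photoreceptor genes was called (median -0.033), and 2 of 8 hemocyte genes were higher and 3 lower (median -0.41). The hemocyte list holds NimC1, with means of 3.06 in the w1118 control and 6.95 in the tim-gal4 control. It passed the filter only through arrays on the yw background, so its lower reading in w1118 supports nothing. Of 6 muscle genes 2 were higher and none lower (median 0.70), and 1 of 6 fat body genes was higher (median -0.046). The log2 of the summed level of the neuronal genes was lowest on the 2 arrays with body-tissue markers. It was 11.73 on tim-gal4 control ZT16 and 11.83 on knockout ZT16, against 11.88 to 12.3 on the other 6 arrays. That of the glial genes was 12.18 and 12.46 on these arrays, against 12.15 to 12.86 on the other 6. Such a sum is led by the genes with the highest readings, for glia Gs2 (11.57 to 12.42), so it does not measure the amount of glia. The part of other cell types in the glial differences was not tested. Without the 2 arrays with body-tissue markers the tim-gal4 control has 1 array, so only sizes are given. The log2 differences between the controls were then 0.81 for Gs2, 0.57 for nrv2, 0.47 for loco and 0.35 for wrapper. With all 8 arrays they were 0.80, 0.54, 0.55 and 0.52.

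Time of collection changed none of the 7 genes past the threshold, where 0.373% of all probe sets were called in limma (0.157% higher and 0.217% lower at ZT16). An unadjusted p under 0.05 was found for 1 of the 7, nrv2, and for 16.5% of all probe sets. From ZT4 to ZT16 nrv2 differed by -0.26 over the 4 strains (SE 0.10, adjusted p = 0.292 in limma), with -0.55 in the knockout, -0.25 in the w1118 control and -0.12 in each yw strain. For repo the difference was -0.43 (SE 0.21, adjusted p = 0.312 in limma). Within strains the repo differences were -1.19 (knockout), -0.35 (tim-gal4 control), -0.21 (w1118 control) and 0.019 (overexpression). The other 5 genes had time differences between -0.041 (loco) and 0.052 (Gat).

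A further fit asked whether the time change of the knockout differed from that of the other strains. For repo it differed by -1.01 (SE 0.23), with an unadjusted p of 0.0108 in limma and an adjusted p of 0.9999. None of the 8300 probe sets was called in this fit, and 169 had an unadjusted p under 0.05. The same fit for overexpression gave 0.60 for repo (SE 0.46, adjusted p = 0.990 in limma), with no call in all and 216 probe sets at an unadjusted p under 0.05. The knockout ZT16 array on which the first value rests is one of those with body-tissue markers, and their part in it was not tested.

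Genes of the wider glial programme were read from 8 lists, with 63 genes measured besides the 7. Gad1 and VGlut, on the list of transmitter uptake and recycling, were also among the neuronal genes, so the counts are not of glial genes alone. In the knockout against the w1118 control, limma called none of the 63, where 1.58% of all probe sets were called. An unadjusted p under 0.05 in limma was found for 12 of the 63, and for 14.1% of all probe sets. Their differences lay between -1.42 and 0.45, with a median of -0.17, and 50 of 63 were below 0 (79.4%, beside 67.1% of all probe sets). The lowest was Gabat, the GABA transaminase gene (log2 difference -1.42, SE 0.33, adjusted p = 0.172 in limma), from 5.57 in the w1118 control to 4.16 in the knockout, with 3.28 in the tim-gal4 control. Of 20 septate junction genes 19 were below 0, with a median of -0.18. The largest differences there were -0.49 for crim and -0.28 for scrib, a polarity scaffold gene.

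The other lists had no call in the knockout either. Among 10 genes of transmitter uptake and recycling, t, which encodes an enzyme that frees histamine and dopamine from their conjugates, showed a log2 difference of -0.65 (SE 0.16, adjusted p = 0.183 in limma), beside a list median of -0.38. The largest differences were 0.45 for Oatp74D and -0.38 for Mdr65, both barrier transporter genes, -0.43 for Crk and -0.39 for Ced-12, of the engulfment machinery, and -0.34 for htl and -0.18 for spi, an FGF receptor gene and an EGF-type ligand gene. Values for wun2 and zyd, a calcium exchanger gene of cortex glia, were -0.47 and -0.29, with all 7 members of that list below 0. The monocarboxylate transporter gene Sln differed by -0.33 and the glucose transporter gene Glut1 by 0.33. The single measured gene of the glial fate list, pros, differed by -0.31. The fate genes gcm and gcm2 were on the array but did not pass the filter.

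Under overexpression 17 of the 63 were called against the tim-gal4 control, 8 higher and 9 lower (27.0%, beside 20.5% of all probe sets), and the median was -0.043 beside 0.099. The engulfment receptor gene drpr rose by 0.95 (SE 0.11, adjusted p = 0.0081 in limma) and Stat92E, which acts with it, by 0.55 (SE 0.11). The barrier genes went both ways, with Mdr65, a drug efflux pump gene, higher by 0.80 (SE 0.10) and Oatp74D, the ecdysone importer gene, lower by 1.32 (-1.32, SE 0.15, adjusted p = 0.0083 in limma). In drpr the tim-gal4 control had the lowest mean of the 4 strains, 8.01, while the means were 8.40 (knockout), 8.45 (w1118 control) and 8.96 (overexpression).

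Other calls under overexpression were spread over the lists. Among gap junction and cortex glia genes, Nckx30C, a calcium exchanger gene, rose by 0.76 and the innexin gene ogre by 0.41. The beta-alanyl-amine synthase gene e rose by 0.58. The count also holds VGlut, a neuronal transporter gene with means of 2.68, 2.77, 3.69 and 4.47 (w1118 control, knockout, tim-gal4 control, overexpression). It passed the filter only through the 2 overexpression arrays, so it had to be higher there and its call supports nothing. Lower values, as log2 differences, were called for the lipid droplet gene Lsd-2 (-0.71), the lipocalin gene NLaz (-0.90), pros (-0.73), spi (-0.55), crok (-0.58) and scrib (-0.58), another probe set of which had the opposite sign. Of the 14 calls named here for overexpression, all 14 were lost with the 4 arrays alone and without tim-gal4 control ZT4, 13 of 13 without either overexpression array, 9 with no filter and 8 without knockout ZT4. The call of ogre was lost in 11 of 18 alternatives, those of e and NLaz in 9, that of Stat92E in 8, those of pros and scrib in 7, those of crok, spi and Lsd-2 in 6, that of Nckx30C in 5 and those of drpr, Mdr65 and Oatp74D in 4.

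**Figure D4:**
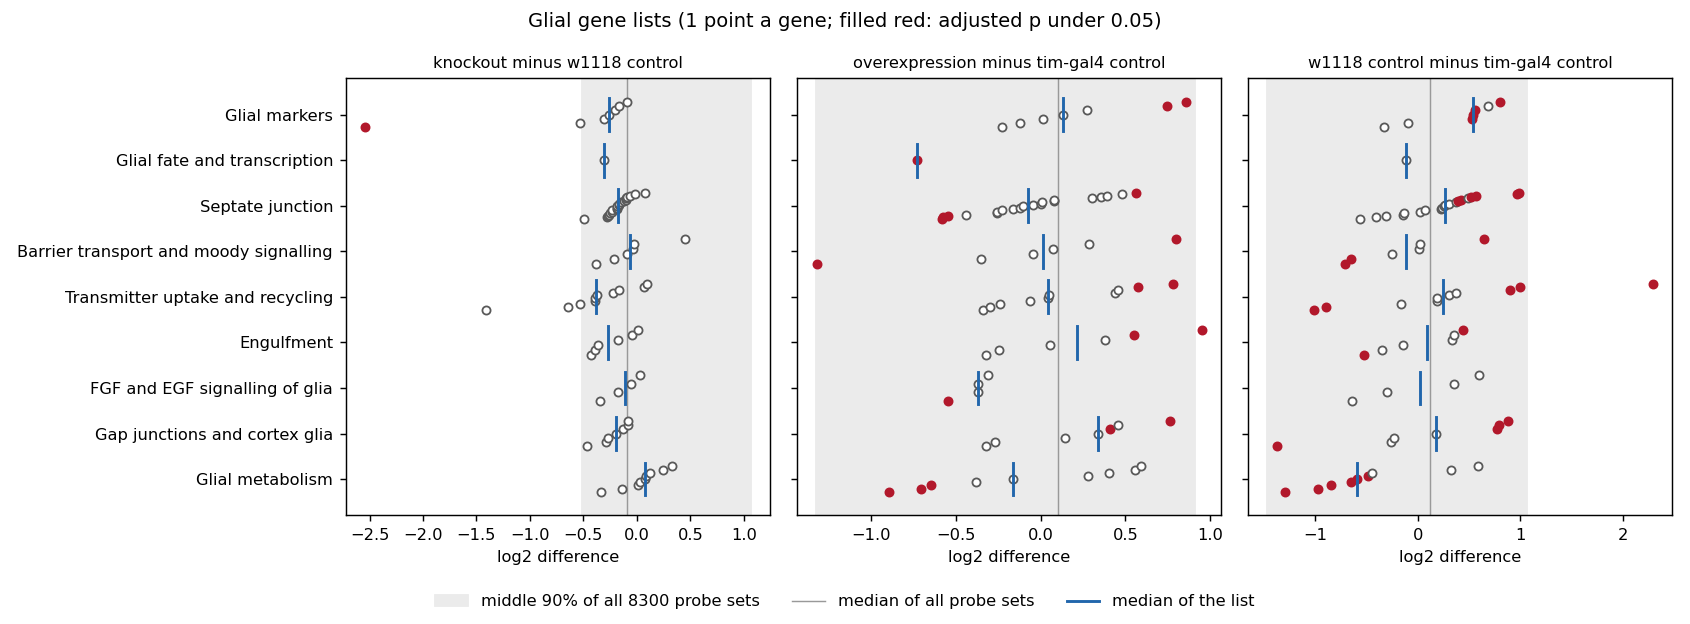
Log2 differences (horizontal axis) of the 7 glial genes and of the genes of 8 glial lists (rows, 1 point a gene) in 3 strain comparisons. Filled red points have an adjusted p under 0.05 in limma, blue lines are list medians, the grey line is the median of all probe sets and the grey band holds their middle 90%. In the knockout repo at -2.54 is the single called point, whereas the other panels have called points on both sides of 0.

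Between the w1118 control and the tim-gal4 control 26 of the 63 were called, 14 higher and 12 lower in w1118 (41.3%, beside 30.9% of all probe sets). By direction, 19.9% of all probe sets were higher and 11% lower in w1118. Of 20 septate junction genes 6 were higher and none lower, led by crok (0.99, SE 0.14) and the pump subunit gene nrv3 (0.97, SE 0.11). Of 9 genes of glial metabolism 6 were lower and none higher, led by the lipid droplet genes Lsd-2 (-1.30, SE 0.12) and bmm, a triglyceride lipase gene (-0.98, SE 0.15). The count of higher genes holds Gabat, with means of 5.57 in w1118 and 3.28 in the tim-gal4 control. It passed the filter only through arrays on the w1118 background, so its call as higher there supports nothing. The count of lower genes holds VGlut, with means of 2.68 and 3.69. For both genes the lower mean is too near the lowest value of the array for a size to be given. Other calls were Galphao (-0.71), Oatp74D (-0.65), Ced-6 (-0.52), drpr (0.44), Nckx30C (-1.37) and wun2 (0.88). The calls of Ced-6 and drpr were lost in 12 and 10 of 18 alternatives, those of Galphao and Oatp74D in 8 and 7. That of wun2 was lost in 5 of 17, that of bmm in 3 of 18 and those of crok, nrv3, Nckx30C and Lsd-2 in 1. Of 12 such calls, Gabat and VGlut included, 12 were lost with the 4 arrays alone and 7 with no filter. Without tim-gal4 control ZT4 or w1118 control ZT16 6 were lost, and without w1118 control ZT4 5. The differences of Egfr and htl, -0.64 and 0.59, were not called, nor was that of pros, -0.12.

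No glial list gene was called between the times in limma, where 0.373% of all probe sets were called. An unadjusted p under 0.05 in limma was found for 16 of the 63, beside 16.5% of all probe sets. The differences from ZT4 to ZT16 lay between -0.65 and 0.33. The lowest were those of t (-0.65, SE 0.11, adjusted p = 0.0987 in limma), e (-0.55, SE 0.080, adjusted p = 0.0780 in limma) and the FGF ligand gene pyr (-0.54, SE 0.086, adjusted p = 0.0963 in limma). Further values were -0.40 for GLaz, -0.38 for vari and Oatp58Dc, -0.35 for Nrg and wun2, -0.34 for Galphai, -0.30 for SK, another probe set of which had the opposite sign, -0.21 for pros, -0.16 for Egfr, -0.15 for Shark, 0.28 for Ced-6 and 0.33 for Lsd-2.

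**Figure D5:**
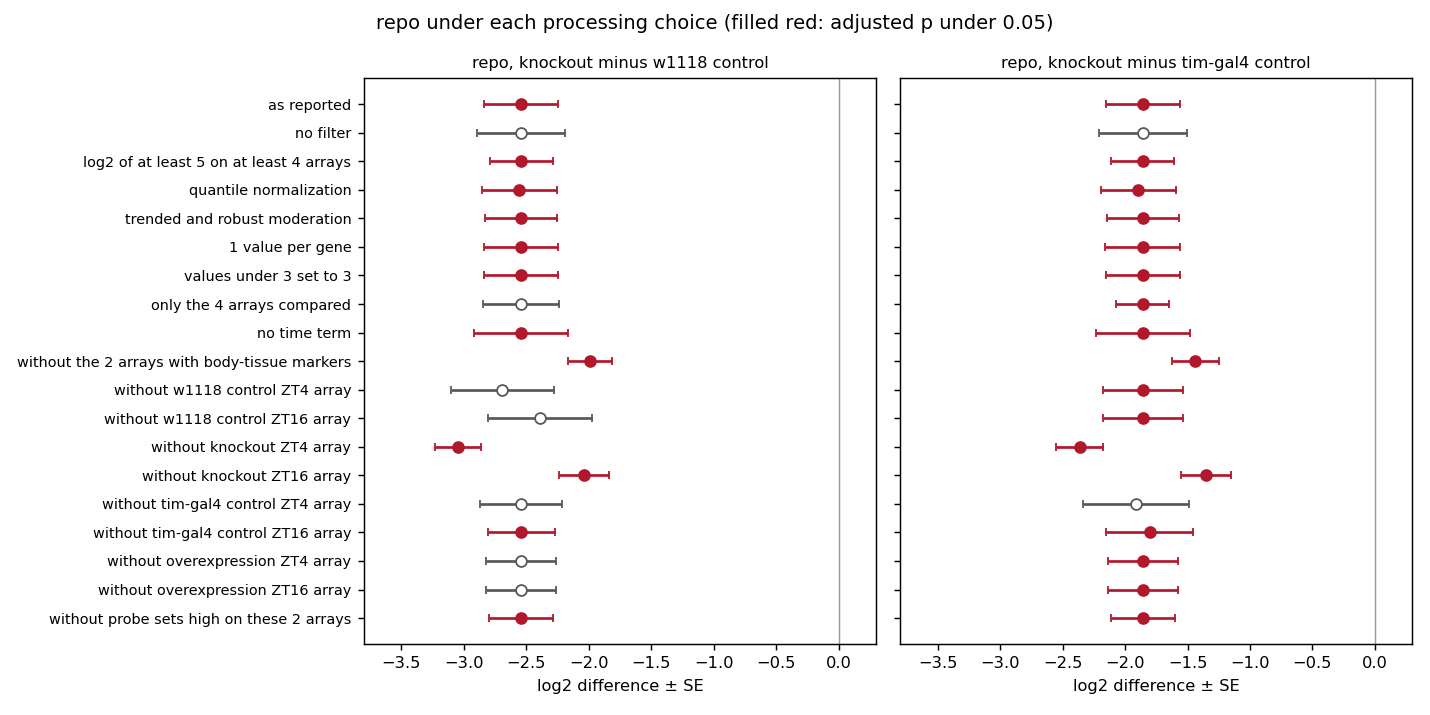
Log2 difference of repo with SE (horizontal axis) between the knockout and each control strain under each processing choice (rows). Filled red points have an adjusted p under 0.05 in limma. Against the w1118 control the difference lies between -3.05 and -1.99 and is called in 11 of 18 alternatives, and against the tim-gal4 control it lies between -2.36 and -1.35 and is called in 16 of 18.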

How the data were processed

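The deposited table holds log2 intensities of 18952 probe sets on 8 arrays, which the authors made with GCRMA, per the submitters' processing notes, and the version and settings are not given in the sources used here. GCRMA corrects background and normalizes arrays together, so a value near the lowest one is not quantitative. From it, 183 control probe sets were left out, and probe sets of at least 4 on at least 2 arrays were kept. Fits were made in limma 3.58.1 (R 4.3.3), with figures drawn in matplotlib 3.10.9 and tables made with pandas 2.3.3, and were tested on simulated data. The number of arrays limits the precision.

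The members and lists were chosen with earlier results of these data known. Named are all members, the 2 genes of each list with the largest called difference (or the largest, where none was called), read on the probe set with the highest mean, and the 5 transcripts most like repo. Genes next to repo, and nrv1 next to nrv2, are named for their place on the chromosome. Symbols came from the platform annotation, updated through gene IDs by the RefSeq table (Release 6), from which only chromosome arms and gene order were taken. The comparisons of overexpression with the knockout and with w1118 were added after seeing the data. Sequences were not used here.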

Additional observations from a re-analysis of the deposited data

How the results depend on the processing

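Calls depended on the filter and on the few arrays, and the cause was not tested. With no filter the calls over all probe sets numbered 30 for the knockout against w1118 (0 glial genes, repo at -2.54 with an adjusted p of 0.229 in limma), 648 for overexpression against tim-gal4 (1 glial gene), 1100 between the controls (1), 702 for the knockout against tim-gal4 (0), 0 between times, and 255 and 68 for the time changes of knockout and overexpression. With only the 4 arrays compared they were 0 (0 glial genes, repo at -2.54), 14 (0) and 83 (0) for the first 3. For the knockout against w1118 the number was 221 with a filter of at least 5 on at least 4 arrays, 246 with trended and robust moderation, 79 with 1 value per gene and 296 without the 372 probe sets high on 2 arrays, an alternative chosen after seeing the data. Between times it was 258, 234 and 292 under the first, the second and the last of these, 3 after quantile normalization, 7 without strain as a block, and 62 without the 2 arrays with body-tissue markers. Leaving out 1 array gave 2 to 278 calls (0 to 1 glial genes, repo -3.05 to -2.04) for the knockout against w1118, 126 to 1831 (0 to 2) for overexpression, 742 to 2795 (0 to 5) between the controls, 412 to 1577 (0 to 2) for the knockout against tim-gal4, 0 to 114 between times, and 0 to 357 and 0 to 381 for the time changes. Signs turned only for differences that were not called. Without the 2 arrays these were nrv2 (0.016) in the knockout, wrapper under overexpression (-0.16) and between knockout and overexpression (0.11), and loco (0.027), Shark (0.11) and Egfr (0.026) between times, and after quantile normalization wrapper under overexpression (-0.060) and moody between times (0.013). Leaving out 1 array, ranges across 0 were -0.36 to 0.027 (nrv2), -0.24 to 0.057 (moody) and -0.053 to 0.71 (Glut1) for the knockout against w1118, -0.53 to 0.071 (repo) and -0.12 to 0.14 (wrapper) for overexpression, -0.14 to 0.13 (wrapper) for the knockout against tim-gal4 and -0.083 to 0.049 (wrapper) against overexpression, -0.0072 to 0.16 (Gat), -0.023 to 0.072 (Gs2), -0.059 to 0.071 (moody) and -0.040 to 0.10 (wrapper) between times, and -0.11 to 0.023 (loco) for the time change of the knockout. Strain is already a block in the comparison of times, and no fit with a replicate number as a block was made, since the labels give none.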
